A study of Mus musculus with 4 samples.

Results

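The genes described here are the cytosolic ribosomal protein genes of the mouse, chosen as the protein-coding genes whose GENCODE symbol has the form Rpl or Rps followed by a number, *Rpsa*, or *Rplp0* to *Rplp2*, with pseudogenes and the Rps6k kinases left out. The rule found 90 genes among the 56748 gene IDs of the count files, 54 with a symbol of the large subunit, 35 with a symbol of the small subunit, and *Rps19bp1*, which fits the pattern but encodes a binding partner of a ribosomal protein. Among the 35 is *Rps23rg1*, a gene derived from *Rps23* that encodes a membrane protein and had no read. Their RNA was read by nanopore direct RNA sequencing in C2C12 cells, an established line of mouse myoblasts with a wild-type genotype label. The 2 scrambled libraries came from cells carrying a scrambled control shRNA, and the 2 knockdown libraries from cells carrying a cocktail of 3 shRNAs against *Hnrnpl*, which encodes a splicing regulator. Cells of both groups expressed eGFP from the shRNA plasmid and were selected with puromycin. Both libraries of a group are passages taken from 1 stable line, so their spread is not that of independently made lines. The titles number the libraries of each group 1 and 2 and name no batch. Libraries of the same number were treated here as a pair.

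A ribosome is built from ribosomal RNA and one copy of most ribosomal proteins. The small subunit reads the mRNA, and the large subunit forms the peptide bond and lets the new chain leave through an exit tunnel. The proteins of both subunits are made in matched amounts in growing cells, and their mRNAs begin with a tract of pyrimidines that ties their translation to mTORC1. Ribosomal protein genes are spread over nearly all chromosomes, and their abundant, short mRNAs have been copied back into the genome many times as processed pseudogenes, which lack introns and often differ from the parent mRNA at few bases. Loss of 1 copy of several of these genes causes Diamond-Blackfan anaemia in people.

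Gene counts summed to 1229424 reads in the shallowest library and 1676911 in the deepest, so that the limit set by 3 counts lay between 1.79 and 2.44 CPM (counts scaled to the library total), for counting error only. *Hnrnpl* itself was lower in both knockdown libraries, with a log2 fold change of -0.78 (SE 0.18, adjusted p = 0.0112 by the quasi-likelihood test of edgeR). Of the myoblast markers, *Des*, *Myf5* and *Cdh15* passed the filter on low counts, *Itga7* had 2 to 6 reads, and *Myod1*, which defines the lineage, had 1 read in all 4 libraries. *Des* fell by 0.56 (adjusted p = 0.0309) and *Cdh15*, a cadherin of myoblasts, by 2.55 (adjusted p = 2.0e-06). *Cdh15* had 113 and 152 reads in the scrambled libraries and 25 and 14 in the knockdown libraries. Macrophage, endothelial and adipocyte markers had 0 to 4 reads per library. Of the markers of differentiated muscle, *Myog*, *Myh3* and *Ckm* had no read, *Acta1* 7 to 16 and *Tnnc1* 2 to 13, and neither of the last was called. Of the fibroblast markers, *Col1a1* had no read, *Pdgfra* 3 to 10, and *Col3a1* 775 and 718 reads (scrambled) against 648 and 347 (knockdown), at -0.42 (adjusted p = 0.186). The part of these cell type markers in the changes below was not tested. The libraries of a group differed for short RNAs. Among genes other than the ribosomal protein genes and their pseudogenes, those with an annotated transcript under 800 bases (n = 220 genes) had a median log2 ratio of -0.16 for knockdown 1 over knockdown 2 and of 0.16 for scrambled 1 over scrambled 2. For transcripts of 3200 bases or more (n = 2987) the ratios were 0.02 and -0.01. For the ribosomal protein genes under 800 bases (n = 25) they were -0.40 and 0.08. The part of transcript length in the changes below was not tested.

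For many ribosomal proteins the deposited counts are divided between the gene and its near-identical copies, and the sequences show how little separates them. Below, coding stretches of 60 bases are set beside the same stretch of a copy on which reads were counted, as given in GRCm39 and GENCODE vM39, with differing bases in capitals. The pairs shown are those behind results described further on.
Rps24: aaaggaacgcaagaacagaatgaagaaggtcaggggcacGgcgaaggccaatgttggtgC
Rps24-ps3: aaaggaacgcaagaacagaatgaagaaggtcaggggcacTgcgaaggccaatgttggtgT
Rpl14: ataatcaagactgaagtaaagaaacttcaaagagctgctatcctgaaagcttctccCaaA
Rpl14-ps1: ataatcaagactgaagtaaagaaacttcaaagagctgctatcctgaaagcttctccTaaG
Rpl22l1: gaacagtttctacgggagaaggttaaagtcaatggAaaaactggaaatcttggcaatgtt
Gm15421: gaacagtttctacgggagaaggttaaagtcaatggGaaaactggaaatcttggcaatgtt
Rps25: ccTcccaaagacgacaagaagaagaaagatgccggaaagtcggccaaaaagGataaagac
Rps25-ps1: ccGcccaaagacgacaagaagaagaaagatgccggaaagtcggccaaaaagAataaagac
Rpl35: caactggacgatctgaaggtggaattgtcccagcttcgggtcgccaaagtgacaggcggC
Rpl35rt: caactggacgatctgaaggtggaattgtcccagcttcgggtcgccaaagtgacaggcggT
Rps13: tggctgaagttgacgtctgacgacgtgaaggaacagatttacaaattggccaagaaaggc

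The *Rps24* stretch lies in an exon at chr14:24543492-24543551 on the forward strand, and that of the processed pseudogene *Rps24-ps3* at chrX:78238973-78239032, also forward. Over the whole aligned coding part of 390 bases they differ at 4. *Rpl14* (chr9:120403170-120403229, forward) and *Rpl14-ps1* (chr7:44974752-44974811, forward) differ at 7 of 651 coding bases. *Rpl22l1* (chr3:28860886-28860945, forward) and the transcribed processed pseudogene *Gm15421* (chr5:22733526-22733585, reverse) differ at 2 of 363. *Rps25* (chr9:44319285-44319344, forward) and *Rps25-ps1* (chr6:145212129-145212188, forward) differ at 4 of 375. *Rpl35* (chr2:38894767-38894826, reverse) and the intronless gene *Rpl35rt* (chr1:156193705-156193764, forward), which is annotated as protein coding, differ at 1 of 369. The *Rps13* stretch (chr7:115932950-115933009, reverse) stands for both *Rps13* and *Rps13-ps2* (chr7:88179975-88180034, reverse), since their 453 coding bases are identical.

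Of the annotated pseudogenes with reads, 397 matched the transcript of a ribosomal protein gene over at least 50% of their length at 80% identity or more, and 77 of the 90 genes had at least one such match. In scrambled 1 and 2, 80325 and 96734 reads were counted on the ribosomal protein genes and 94052 and 107980 on the matched pseudogenes. In knockdown 1 and 2 the numbers were 63407 and 67038 on the genes and 74432 and 76992 on the pseudogenes. The pseudogenes thus held 53.9%, 52.8%, 54.0% and 53.5% of the summed reads in the 4 libraries, nearly the same share in each. On 47 genes fewer reads were counted than on their pseudogenes, and for 35 genes the pseudogenes held over 90% of the reads. *Rps13* had 12, 10, 9 and 17 reads in scrambled 1, scrambled 2, knockdown 1 and knockdown 2, and 99.5% of its summed reads lay on pseudogenes. *Rpl30* had 99.1% of its reads there and *Rps7* 98.7%. At the other end, *Rpl8* and *Rplp2* had none, *Rpl4* 0.183% and *Rps20* 0.879%. The largest count on any of the genes was that of *Rpl8*, with 9208, 10343, 7345 and 7101 reads. A further 22.7% to 23.8% of all reads in the files were set aside for low alignment quality and 15.97% to 16.54% as ambiguous between genes, and which of these came from ribosomal protein mRNAs was not tested.

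**Figure D1:**
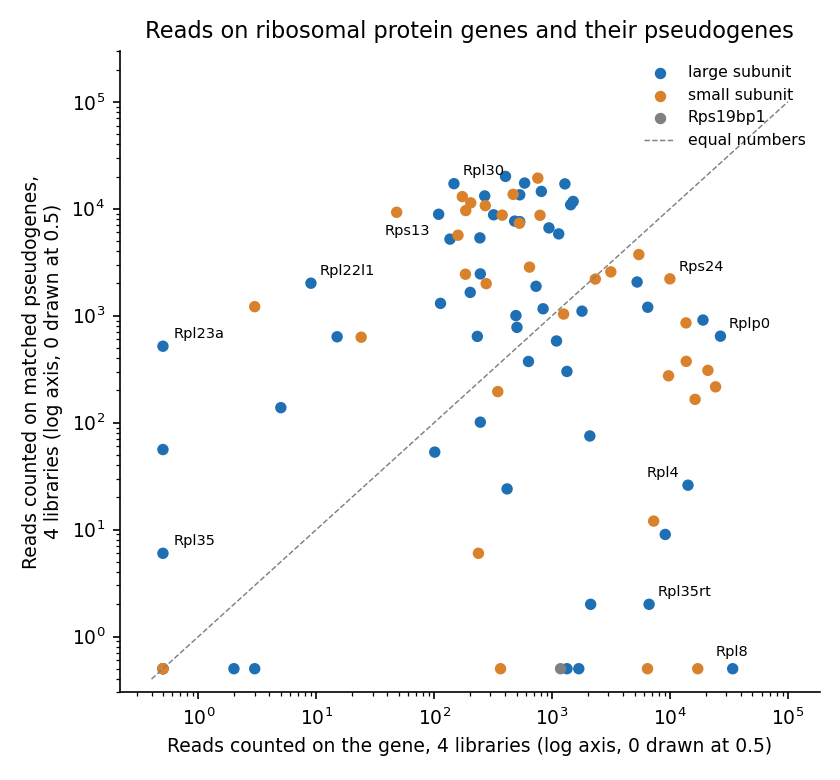
Reads counted on each of the 90 ribosomal protein genes (horizontal) and on the pseudogenes matched to it (vertical), summed over the 4 libraries on log axes, with 0 drawn at 0.5; the dashed line marks equal numbers. The 47 genes above the line, among them *Rps13* and *Rpl30*, had more reads on pseudogenes than on the gene, while *Rpl8* and *Rpl4* had nearly all reads on the gene.

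The first comparison asks which ribosomal protein genes differed between knockdown and scrambled in the counts as deposited. Of the 90 genes, 76 passed the filter on low counts. A gene was called when its adjusted p was under 0.05, its log2 fold change was beyond 0.5 in either direction and its mean normalized count was over 10. Called lower were 6 genes, *Rpl13a*, *Rps24*, *Rpl14*, *Rps27l*, *Rpl4* and *Rplp1*, against 3.22% of all 8670 genes tested. Called higher was 1 gene, *Rpl35a*, against 2.33% of all genes. Both knockdown libraries lay below both scrambled libraries for 24 of the 76 genes (31.6%, against 26.0% of all genes tested), and above both for 8 (10.5%, against 26.4%). The median log2 fold change over the 76 genes was -0.10, beside -0.001 over all genes tested. It was 0.02 without knockdown 1 and -0.28 without knockdown 2. Counts scaled to the mean library size are called normalized counts below.

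*Rpl4* encodes a large subunit protein whose loop lines the exit tunnel. Its normalized counts were 4203 and 4301 (scrambled) against 2553 and 2949 (knockdown), a mean of 4252 ± 69.1 (SD, n = 2) against 2751 ± 279 (SD, n = 2), and it fell by 0.63 on the log2 scale (SE 0.14, adjusted p = 0.0115). *Rplp1* encodes an acidic protein of the P stalk, the flexible arm that draws translation factors to the ribosome. It had 5528 and 5611 (scrambled) against 3562 and 4118 (knockdown) and fell by 0.54 (SE 0.14, adjusted p = 0.0328). For both genes the groups were clear of each other, and few of their reads lay on pseudogenes (0.183% and 4.56%).

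*Rps27l*, the stand-alone paralogue of *Rps27*, had 2674 and 1751 (scrambled) against 1352 and 1490 (knockdown) and fell by 0.64 (SE 0.17, adjusted p = 0.0312). The scrambled libraries lay further apart from each other than the knockdown libraries did. *Rps24*, a small subunit protein needed to process the ribosomal RNA precursor and mutated in Diamond-Blackfan anaemia, had 2914 and 3199 (scrambled) against 1285 and 2461 (knockdown) and fell by 0.71 (SE 0.20, adjusted p = 0.0463). *Rpl14*, of the large subunit, had 533 and 557 (scrambled) against 267 and 413 (knockdown) and fell by 0.69 (SE 0.17, adjusted p = 0.0207). In both, knockdown 1 was well below knockdown 2, and the groups did not overlap. *Rpl13a*, a large subunit protein also known for regulating translation in inflammation, had 87.0 and 62.3 (scrambled) against 43.9 and 36.3 (knockdown) and fell by 0.87 (SE 0.24, adjusted p = 0.0373). *Rpl35a*, a large subunit protein mutated in Diamond-Blackfan anaemia, had 133 and 147 (scrambled) against 214 and 250 (knockdown) and rose by 0.73 (SE 0.16, adjusted p = 0.00934).

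**Figure D2:**
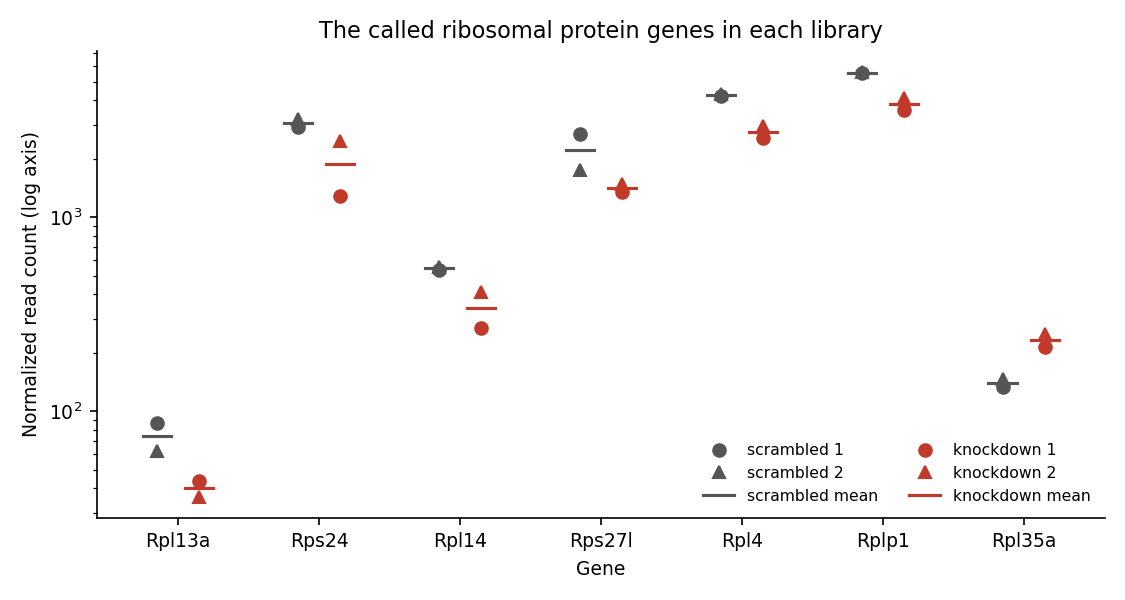
Normalized read counts (log axis) of the 7 called ribosomal protein genes in scrambled 1 and 2 (grey) and knockdown 1 and 2 (red); circles are libraries numbered 1, triangles libraries numbered 2, and bars the mean of the group. The groups are clear of each other for every gene shown, but the genes were chosen by their call in these same libraries. Knockdown 1 is the lower knockdown library for *Rps24* (1285 against 2461) and *Rpl14* (267 against 413).

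Each of these calls was lost when some single library was left out. Without knockdown 1, none of the 76 genes was called lower (against 1.24% of 9064 genes), with log2 fold changes of -0.53 for *Rpl4* (adjusted p = 0.0556), -0.44 for *Rplp1* (adjusted p = 0.102), -0.57 for *Rps27l* (adjusted p = 0.160), -0.31 for *Rps24* (adjusted p = 0.270), -0.40 for *Rpl14* (adjusted p = 0.229) and -1.02 for *Rpl13a* (adjusted p = 0.0990). Without knockdown 2, 12 were called lower (against 2.85% of 9144 genes). Without scrambled 1, the log2 fold change was -0.30 for *Rps27l* (adjusted p = 0.460), -0.63 for *Rpl13a* (adjusted p = 0.230), -0.55 for *Rplp1* (adjusted p = 0.0999) and 0.66 for *Rpl35a* (adjusted p = 0.0509). Without scrambled 2 it was -0.62 for *Rpl4* (adjusted p = 0.0501) and -0.53 for *Rplp1* (adjusted p = 0.127), and without knockdown 2 it was -0.75 for *Rpl13a* (adjusted p = 0.141) and 0.61 for *Rpl35a* (adjusted p = 0.0656). *Rps2* was called higher, at 0.80, without scrambled 2 and, at 0.89, without knockdown 1, and lay at 0.04 without knockdown 2. With the DESeq2 Wald test under the local fit, *Rpl13a* (at -0.89, adjusted p = 0.174), *Rps24* (adjusted p = 0.583) and *Rps27l* (adjusted p = 0.358) lost their calls. Under its parametric fit, *Rpl14* (at -0.69, adjusted p = 0.108) and *Rpl35a* (at 0.72, adjusted p = 0.162) lost theirs too. A robust quasi-likelihood fit ended the call of *Rps24* (adjusted p = 0.278). The call of *Rps24* was also lost under RLE factors (adjusted p = 0.0531), upper quartile factors (adjusted p = 0.0516) and TMM factors computed without the ribosomal protein genes (adjusted p = 0.0535). With the replicate number as a block, *Rplp1* (adjusted p = 0.0725) and *Rps27l* (adjusted p = 0.0508) lost theirs.

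Within the pair of libraries numbered 1, 62 of the 76 genes were lower in knockdown, with a median log2 ratio of -0.35, and within the pair numbered 2, 35 were lower, with a median of 0.05. Over 5777 other genes the medians were 0.0 and 0.02, and over the 220 of these with transcripts under 800 bases -0.25 and 0.13. All 6 genes called lower were lower in both pairs, *Rps24* by a log2 ratio of -1.18 and -0.38 and *Rpl4* by -0.72 and -0.54. They were chosen by their call in these same libraries, so this is no separate support for the calls. *Rpl35a*, chosen in the same way, was higher in both pairs, by 0.69 and 0.77. The reads on all ribosomal protein genes made up 5.79% and 5.77% of the counted reads in scrambled and 4.61% and 5.45% in knockdown, a mean difference of -0.746 percentage points, which was -0.326 without knockdown 1 and -1.17 without knockdown 2. The exact two-sided permutation test gave p = 0.33, the smallest it can give with 2 libraries against 2. In bulk RNA, fewer cells expressing a gene and less RNA per cell cannot be told apart.

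At an unadjusted p under 0.05, without reaching a call, stood 10 more genes below 0 and 2 above, which makes 16 of 76 lower (21.1%, against 11.5% of all genes) and 3 higher (3.95%, against 10.3%). *Rpl32*, of the large subunit, had the lowest log2 fold change of all, -0.97 (SE 0.35, adjusted p = 0.10), on normalized counts of 39.8 and 26.9 (scrambled) against 14.96 and 18.7 (knockdown). Pseudogenes held 34.4% of its reads, and with these added the value was -0.62 (adjusted p = 0.214). *Rpl10*, which joins the large subunit late and reaches towards the peptidyl transferase centre, had 184.4 and 183.5 (scrambled) against 119 and 137 (knockdown) (-0.53, SE 0.16, adjusted p = 0.0567). *Rpl17*, at the exit tunnel, had 165 and 128 against 78.8 and 123 (-0.54, adjusted p = 0.119). *Rpsa*, a small subunit protein that also serves as a laminin receptor, had 846 and 940 against 645 and 674 (-0.44, adjusted p = 0.0602).

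*Rps3*, at the mRNA entry of the small subunit, had 4236 and 3644 (scrambled) against 2556 and 3259 (knockdown) (-0.44, adjusted p = 0.0965). *Rpl15* had 368 and 386 against 263 and 306 (-0.41, adjusted p = 0.105), and *Rpl3*, beside the peptidyl transferase centre, 78.6 and 74.1 against 55.8 and 57.3 (-0.43, adjusted p = 0.223). In *Rpl37*, *Rpl35rt* and *Rps21* the 2 knockdown libraries disagreed and the groups overlapped. *Rps21* had 3597 and 4175 (scrambled) against 2055 and 3752 (knockdown) (-0.42, adjusted p = 0.224), *Rpl37* 146 and 161 against 73.8 and 149 (-0.49, adjusted p = 0.215), and *Rpl35rt* 1985 and 1867 against 911 and 1891 (-0.46, adjusted p = 0.220). Above 0 were *Rpl7*, with 1339 and 1540 (scrambled) against 1640 and 2008 (knockdown) (0.34, adjusted p = 0.177), and *Rps2*, with 79.6 and 114 against 101 and 181 (0.52, adjusted p = 0.198). Also among the largest log2 fold changes were those of *Rps13* (0.45, SE 0.47, adjusted p = 0.624) and *Rpl5* (0.39, SE 0.31, adjusted p = 0.489), both with under 35 normalized counts in every library.

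By subunit, 4 of the 44 large subunit genes tested were called lower and 1 higher, against 3.22% and 2.33% of all genes, with a median log2 fold change of -0.03 and a range from -0.97 to 0.73. Of the 31 small subunit genes tested, 2 were called lower and none higher, with a median of -0.14 and a range from -0.71 to 0.52. Without knockdown 1 the medians were 0.13 for the large and -0.03 for the small subunit, and without knockdown 2 they were -0.28 and -0.29. Without scrambled 1 the large subunit was the lower, at -0.10 against -0.05, and without scrambled 2 the medians were -0.045 (large) and -0.22 (small). *Rps19bp1* had 300 and 304 (scrambled) against 262 and 315 (knockdown) (-0.07, adjusted p = 0.836).

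By place in the ribosome, each structure holds few genes, and its calls stand beside 3.22% lower and 2.33% higher over all genes. Differences between members of a structure were not tested. Of the P stalk, *Rplp1* fell, while its base *Rplp0* had 6541 and 6418 (scrambled) against 6747 and 7182 (knockdown) (0.10, adjusted p = 0.721) and its other acidic protein *Rplp2* 347 and 306 against 326 and 368 (0.09, adjusted p = 0.769). *Rpl12*, at the root of the stalk, stood at -0.26 (adjusted p = 0.426). Of the partners of the small ribosomal RNA of the large subunit, *Rpl11* stood at -0.37 (adjusted p = 0.336) and *Rpl5* at 0.39. The neighbours of the peptidyl transferase centre were all below 0 without a call, *Rpl10* and *Rpl3* as given above and *Rpl8*, with 9648 and 8708 (scrambled) against 7323 and 8306 (knockdown), at -0.23 (adjusted p = 0.386).

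Around the exit tunnel, 5 of 8 genes were tested. *Rpl4* fell, *Rpl17* stood at -0.54, *Rpl26* at -0.33 (adjusted p = 0.341), *Rpl39* at -0.03 (adjusted p = 0.925) and *Rpl31* at 0.16 (adjusted p = 0.631). On the path of the mRNA through the small subunit, none of 8 genes was called, against 3.22% lower and 2.33% higher over all genes. Among those below 0 were *Rps3*, *Rps14* (-0.29, adjusted p = 0.313), *Rps23* (-0.20, adjusted p = 0.555) and *Rps26* (-0.11, adjusted p = 0.726), and *Rps2*, *Rps28* (0.30, adjusted p = 0.543) and *Rps15* (0.12, adjusted p = 0.684) lay above. Of the 21 genes linked to Diamond-Blackfan anaemia, 19 were tested, *Rps24* fell and *Rpl35a* rose (against 3.22% lower and 2.33% higher over all genes), and the median was -0.11. The call of *Rpl35a* was lost with pseudogene reads added, at 0.32 (adjusted p = 0.170). *Rps19*, the gene most often mutated in that disease, had 625 and 630 (scrambled) against 386 and 695 (knockdown) (-0.22, adjusted p = 0.541).

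The second comparison sets each gene beside the chromosome it lies on. The reference is the median log2 fold change of the other tested genes of that chromosome, with the ribosomal protein genes and their pseudogenes left out. It ran from -0.37 on chromosome 9 (479 genes) and -0.36 on chromosome 14 (276 genes) to 0.31 on chromosome 16 (284 genes). On chromosome 9 all 7 ribosomal protein genes tested were below 0, and *Rpl14*, *Rps27l*, *Rpl4* and *Rplp1*, which make up 4 of the 6 genes called lower, lie there. *Rps24* and *Rpl15* are the ones on chromosome 14, both below 0. *Rpl35a* was the one gene tested on chromosome 16. All 5 on chromosome 5 (*Rplp0*, *Rpl21*, *Rpl6*, *Rpl9* and *Rpl5*, median of the other genes 0.24) and all 6 on chromosome 17 (*Rpl10a*, *Rpl36*, *Rpl7l1*, *Rps2*, *Rps18* and *Rps28*, median 0.20) were above 0, none of them called. With matched pseudogene reads added, *Rpl5* (-0.15) and *Rpl6* (-0.15) on chromosome 5 lay below 0. So did *Rpl10a* (-0.25), *Rpl36* (-0.12) and *Rps18* (-0.16) on chromosome 17, again without a call. The median of the ribosomal protein genes tested went from 0.21 to 0.11 on chromosome 5. On chromosome 17 it was 0.16 over the 6 genes and -0.09 over 7 with these reads added. The gene that joined was *Rps10* (-0.09), so the medians of chromosome 17 cover different genes.

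**Figure D3:**
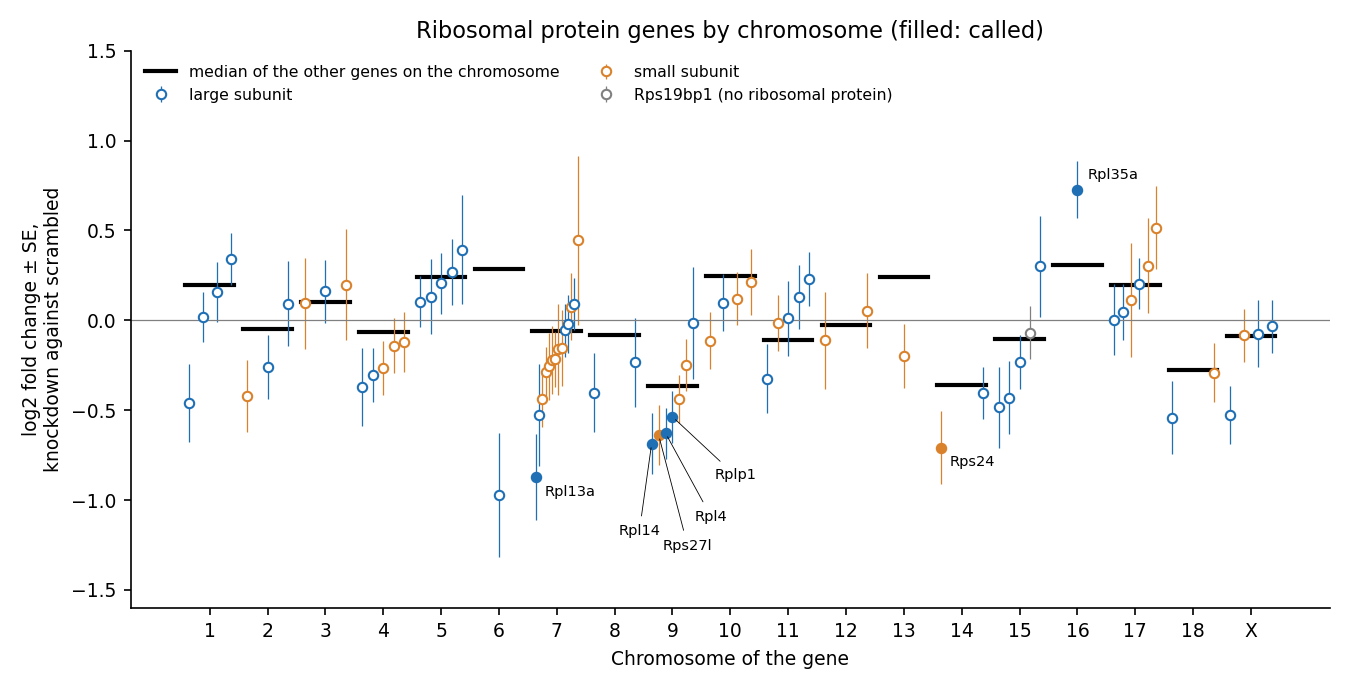
Log2 fold change ± standard error of the 76 ribosomal protein genes tested, by chromosome; blue points are large subunit, orange points small subunit, filled points were called, and black bars give the median of the other genes on the chromosome. The 4 called genes on chromosome 9 lie below a median of -0.37, and *Rpl35a* above the median of 0.31 on chromosome 16.

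Across the 76 genes, Pearson's r between the log2 fold change and the chromosome median was 0.557 and Spearman's rho 0.531. For the 19 genes with a mean normalized count of 1000 or more, r was 0.761 and rho 0.62. These are descriptions across genes that share libraries and, within a chromosome, 1 reference value. With the chromosome medians taken out as offsets, none of the 7 called genes was still called. *Rpl14* then stood at -0.32 (adjusted p = 0.410), *Rps27l* at -0.27 (adjusted p = 0.504), *Rpl4* at -0.26 (adjusted p = 0.425), *Rplp1* at -0.17 (adjusted p = 0.661), *Rps24* at -0.35 (adjusted p = 0.471), *Rpl13a* at -0.81 (adjusted p = 0.0726) and *Rpl35a* at 0.42 (adjusted p = 0.188). In that fit *Rpl32*, on chromosome 6 with a median of 0.29, was called lower at -1.26 (adjusted p = 0.0470), the 1 gene called lower against 2.09% of all genes, and none was called higher against 1.2%. *Rpl32* rests on 15 to 38 reads per library. Each group is 1 selected line, so a difference between the lines that is carried by whole chromosomes and an effect of the knockdown cannot be told apart here.

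The third comparison asks whether the pseudogenes moved with their own chromosome or with that of the parent gene. Of the matched pseudogenes, 109 were tested, 94 of them at 98% identity or more to a ribosomal protein transcript. Of these 109, 93 were below 0, 15 were called lower and none higher, with a median of -0.32. Over all 8670 genes tested, 4341 were below 0, 3.22% were called lower and 2.33% higher. The 184 other pseudogenes tested had a median of -0.13, with 10 called lower. Across the 109, Pearson's r of the log2 fold change with the median of the parent gene's chromosome was 0.603 (Spearman's rho 0.547), and with the median of the chromosome on which the pseudogene itself lies it was 0.006 (rho -0.021). For the 106 that lie on another chromosome than the parent, r was 0.608 and 0.006. For the 58 with a mean normalized count of 100 or more it was 0.576 and -0.131. These are again descriptions across features that share libraries, and several pseudogenes have the same parent. When single libraries were left out, r with the parent's chromosome lay between 0.501 and 0.546 and r with the own chromosome between -0.073 and 0.099. The calls depended on which library was left out, and most were lost without scrambled 1 and without knockdown 1. The median lay between -0.48 and -0.21, beside -0.34 and 0.04 for the other pseudogenes.

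The pseudogenes whose parent lies on chromosome 9 or 14 numbered 15, and 9 of them were called lower (against 3.22% of all genes), with a median of -0.75. The 94 with a parent elsewhere had 6 called lower and a median of -0.27. Without scrambled 1 and without knockdown 1, none of the 15 was called lower, with medians of -0.46 and -0.87, against -0.17 and -0.18 for those with a parent elsewhere. Without scrambled 2, 10 of the 15 were called lower, with a median of -1.22 against -0.40, and without knockdown 2, 4 were, with a median of -0.76 against -0.41. The 9 pseudogenes that themselves lie on chromosome 9 or 14 had a median of -0.35. *Rps24-ps3*, on the X chromosome, had normalized counts of 671 and 466 (scrambled) against 336 and 398 (knockdown) and fell by 0.63 (adjusted p = 0.0305), near its parent on chromosome 14. *Rpl14-ps1*, on chromosome 7, had 399 and 281 against 173 and 249 and fell by 0.69 (adjusted p = 0.0347), near its parent on chromosome 9. *Rpsa-ps10*, on chromosome 3, had 862 and 677 against 508 and 490 and fell by 0.62 (adjusted p = 0.0145), with a parent on chromosome 9. *Rps25-ps1*, on chromosome 6 with a parent on chromosome 9, fell by 0.89 (adjusted p = 0.0303). *Rps19-ps6*, on chromosome 12, fell by 0.77 (adjusted p = 0.0269), with a parent on chromosome 7, whose median was -0.06. *Rpl23a-ps3*, itself on chromosome 14, fell by 0.86 (adjusted p = 0.0387), with a parent on chromosome 11, whose median was -0.11. *Rps26-ps1*, on chromosome 8 with a parent on chromosome 10, had 4303 and 4280 against 5106 and 5866 (0.35, adjusted p = 0.152), and the median of chromosome 10 was 0.25.

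**Figure D4:**
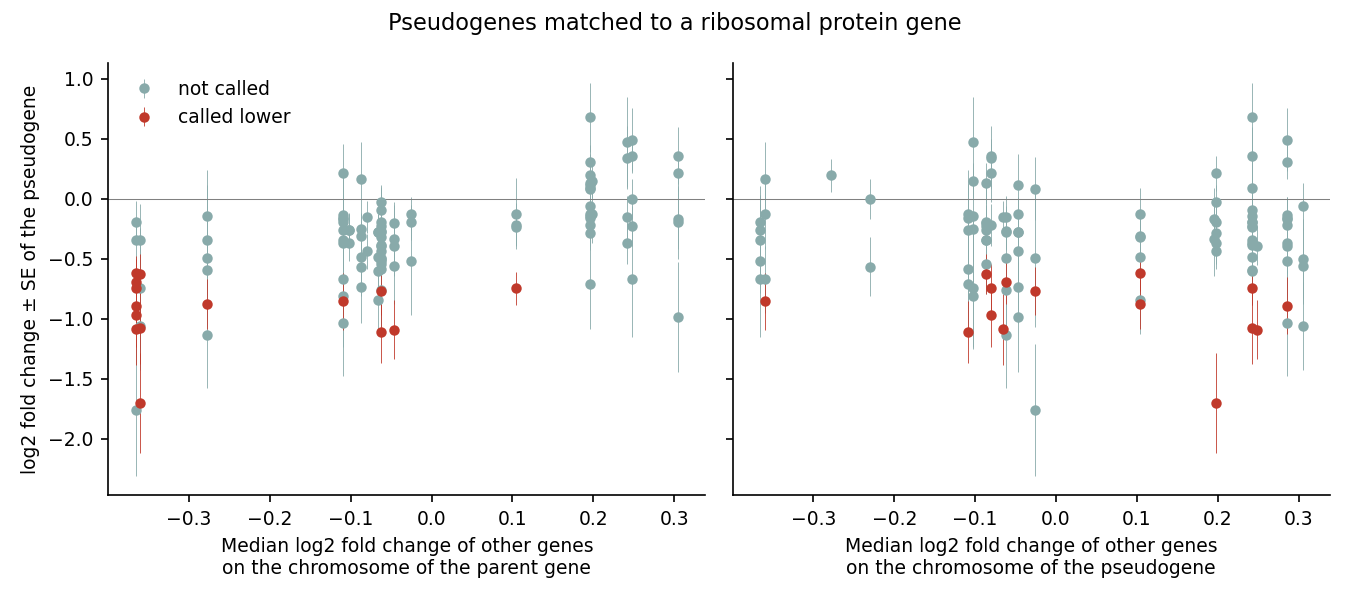
Log2 fold change ± standard error of the 109 tested pseudogenes matched to a ribosomal protein gene, against the median of the other genes on the parent gene's chromosome (left) and on the pseudogene's own chromosome (right); red points were called lower. Pearson's r was 0.603 with the parent's chromosome and 0.006 with the own chromosome, across points that share libraries and, in part, parents. Of the 109 points, 93 lie below 0. Of the 15 red points, 9 have a parent on chromosome 9 or 14 and 6 a parent elsewhere.

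The fourth comparison repeats the test with the reads of each matched pseudogene added to its best-matching gene, an alternative chosen after the data were seen. The test then covered 83 ribosomal protein genes. Of these, 12 were called lower, against 3.14% of the 8568 features tested, and none higher, against 2.3%. The median was -0.23, and 66 of 83 were below 0. All 6 genes called lower in the deposited counts were called again, and *Rpl10*, *Rpsa*, *Rps14*, *Rps25*, *Rpl22l1* and *Rpl23a* were added. The large subunit had 7 called lower of 49 and a median of -0.23, and the small subunit 5 of 33 and a median of -0.24.

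*Rps25*, a small subunit protein used by viral mRNAs that start translation without a cap, had 4 to 8 reads of its own per library and was not tested alone. Its summed normalized counts were 274 and 158 (scrambled) against 115 and 104 (knockdown), and they fell by 0.97 (SE 0.21, adjusted p = 0.0111). The scrambled libraries lay far apart, and without scrambled 1 the value was -0.53 (adjusted p = 0.136). *Rpl22l1*, the paralogue of *Rpl22*, had 1 to 3 reads of its own per library. Its summed counts, nearly all from *Gm15421*, were 663 and 586 (scrambled) against 373 and 372 (knockdown), and they fell by 0.75 (SE 0.14, adjusted p = 0.00296), while *Rpl22* itself had 2708 and 2330 against 1813 and 2267 (-0.30, adjusted p = 0.242). *Rpl23a*, at the mouth of the exit tunnel where the signal recognition particle binds, had no read of its own. Its summed counts were 175 and 149 (scrambled) against 92.7 and 94.7 (knockdown), and they fell by 0.79 (SE 0.17, adjusted p = 0.00858).

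*Rpl10* fell by 0.56 in sum (adjusted p = 0.0275), *Rpsa* by 0.53 (adjusted p = 0.0265) and *Rps14*, on the mRNA path, by 0.52 (adjusted p = 0.0433). With the replicate number as a block, *Rpsa* (adjusted p = 0.0633), *Rps14* (adjusted p = 0.0876) and *Rplp1* (adjusted p = 0.0797) lost their summed calls. The summed call of *Rpl10* was lost when any single library was left out, with log2 fold changes between -0.565 and -0.558. *Rpl13a* had 393 and 198 (scrambled) against 141 and 142 (knockdown) in sum and fell by 1.06 (adjusted p = 0.0108), and without scrambled 1 the value was -0.49 (adjusted p = 0.170). *Rpl35a* lost its call, with 607 and 568 (scrambled) against 710 and 757 (knockdown) and a log2 fold change of 0.32 (adjusted p = 0.170), and the groups still did not overlap. The sign changed for 16 genes, 15 of them from above 0 to below. *Rps13* went from 0.45 to -0.27 (adjusted p = 0.316) and *Rpl5* from 0.39 to -0.15 (adjusted p = 0.668), while *Rps26* went from -0.11 to 0.33 (adjusted p = 0.184). With the pseudogene reads added, r with the chromosome median was 0.601 over the 83 genes. When the chromosome medians were also removed, *Rpl13a*, *Rpl22l1* and *Rpl23a* were the 3 genes of 83 called lower, at -0.995, -0.85 and -0.68. The share over all features is not given for that fit. It was 2.09% with chromosome medians removed alone and 3.14% with pseudogene reads added alone. Without knockdown 1 and with chromosome medians kept, *Rpl22l1* stood at -0.75 and *Rpl23a* at -0.77, and neither kept its call.

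**Figure D5:**
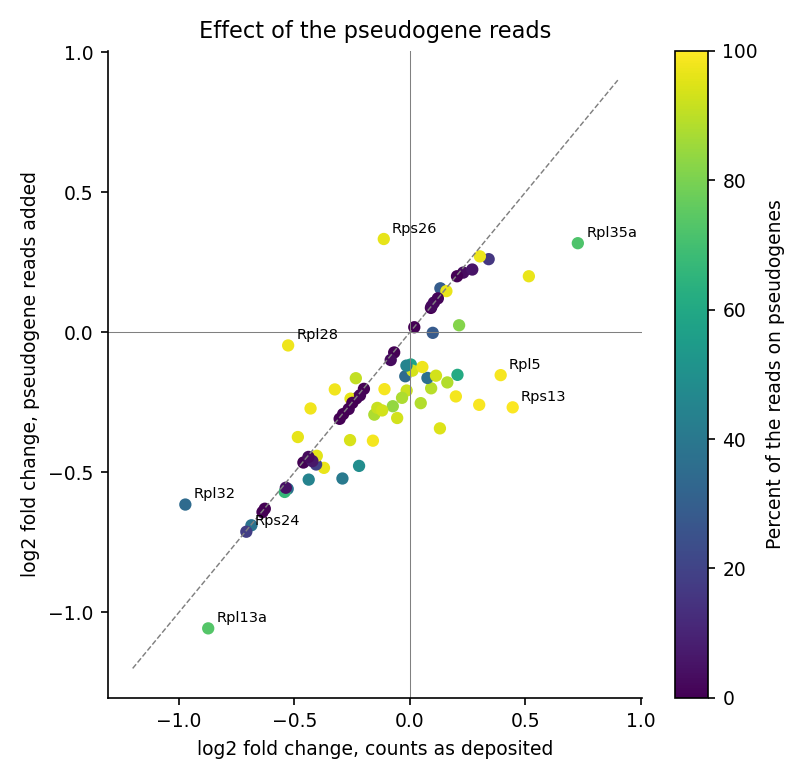
Log2 fold change of the 76 ribosomal protein genes tested in the counts as deposited (horizontal) and with the reads of matched pseudogenes added (vertical), coloured by the percent of reads on pseudogenes; the dashed line marks equal values. Genes with few pseudogene reads stay on the line, and *Rps13* (0.45 to -0.27) and *Rpl5* (0.39 to -0.15) leave it.

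The 14 genes that did not pass the filter were *Rpl3l*, *Rpl10l*, *Rpl19*, *Rpl22l1*, *Rpl23a*, *Rpl24*, *Rpl27rt*, *Rpl35*, *Rpl36al*, *Rpl39l*, *Rps4l*, *Rps10*, *Rps23rg1* and *Rps25*. Of these, 7 had no read in any library, among them *Rpl23a* and *Rpl35*, which encode proteins of every ribosome. *Rpl35* and its copy *Rpl35rt* differ at 1 of 369 aligned coding bases, the one shown above. *Rpl35rt* had 1894 and 2217 reads in the scrambled libraries and 914 and 1617 in knockdown. *Rps10* had 0 to 2 reads of its own, and 383, 280, 294 and 257 on its matched pseudogenes. *Rpl19* had 3 to 6, and 164, 148, 229 and 94 on pseudogenes, at a summed log2 fold change of 0.20 (adjusted p = 0.687). *Rpl3l*, the form of *Rpl3* used in heart and skeletal muscle, had 0 or 1 read per library, and the testis forms *Rpl10l* and *Rpl39l* had none. For genes with near-identical copies, a count of 0 sets no limit on expression, since reads may be counted on a copy. Among the paralogues that were tested, *Rpl7l1* had 430 and 361 (scrambled) against 450 and 460 (knockdown) (0.20, adjusted p = 0.431), against 0.34 for *Rpl7*. *Rps27* had 69.2 and 48.0 against 48.9 and 76.0 (0.09, adjusted p = 0.870), and its intronless copy *Rps27rt* 1839 and 1661 against 1320 and 1626 (-0.25, adjusted p = 0.332), beside the fall of *Rps27l*. The difference between members of these pairs was not tested.

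The annotation places exons of another gene listed in the files on the same strand over 6 of the 90 genes, *Rpl13a*, *Rpl19*, *Rpl24*, *Rpl32*, *Rpl36al* and *Rps10*, and on the opposite strand over 31. For *Rpl13a*, *Rpl36al* and *Rps10* the same-strand gene is protein coding (*Gm45713*, *Gm49383* and *Gm49804*), so reads that fit both could be set aside as ambiguous.

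Around the ribosomal protein genes stand genes for ribosome assembly and for proteins of the same translational class. Of the ribosomal proteins outside the symbol rule, *Fau* (329 and 403 in scrambled, 211 and 335 in knockdown, -0.43, adjusted p = 0.170) and *Rack1* (6833 and 6305 against 5520 and 5762, -0.22, adjusted p = 0.394) were below 0 and not called. Of 78 mitochondrial ribosomal protein genes, which build the separate ribosome of mitochondria, 72 were tested, 2 were called higher and 2 lower (against 2.33% and 3.22% of all genes), and the median was 0.02. Of 78 ribosome biogenesis factors, 72 were tested, *Utp20* rose (0.77, adjusted p = 0.0235), and *Rrp9* (-0.81, adjusted p = 0.0152), *Gnl3* (-0.58, adjusted p = 0.0306) and *Utp18* (-0.56, adjusted p = 0.0446) fell, with a median of 0.09. These counts too stand against 2.33% higher and 3.22% lower over all genes. *Rrp9* lies on chromosome 9, *Gnl3* on chromosome 14, *Utp18* on chromosome 11 (median -0.11) and *Utp20* on chromosome 10 (median 0.25). Of 12 tested genes of RNA polymerase I, which makes the ribosomal RNA precursor, *Polr1h*, on chromosome 17 (median 0.20), rose by 0.59 (adjusted p = 0.0293), 1 gene called higher against 2.33% of all genes. Of 15 other transcripts with the pyrimidine tract, 13 were below 0, beside 4341 of all 8670 genes tested, and 1 was called lower, against 3.22% of all genes: *Eef1a1*, the elongation factor that brings aminoacyl-tRNA, fell by 0.84 (adjusted p = 0.0133), on chromosome 9. *Eef1a1* had 129 and 167 reads (scrambled) against 93 and 51 (knockdown). Reads on pseudogenes of these other transcripts were not matched to them. None of the 13 tested regulators of that tract or of mTORC1 was called, among them *Mtor* (-0.49, adjusted p = 0.357) and *Larp1* (-0.05, adjusted p = 0.903). None of the 4 tested chaperones of ribosomal proteins was called.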

How the data were processed

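Per the labels and the study's methods, the authors sequenced total RNA as direct RNA (SQK-RNA002, R9.4.1), basecalled with guppy, mapped to GRCm39 with minimap2 2.17 and counted reads per gene with HTSeq 0.9.1. The deposited files hold raw counts; the annotation release and the strand setting are not given in the sources used here. Of 56748 gene IDs, 56017 were found in GENCODE vM39. Rows that name no gene were left out of library sizes. The members and gene lists were chosen with earlier results of these data known.

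Counts were tested over all genes in edgeR 4.0.16 (R 4.3.3; TMM, filterByExpr, quasi-likelihood test, Benjamini-Hochberg), with the thresholds given in the report. Alternatives were RLE and upper quartile factors, other filters, 4 configurations of DESeq2 1.42.0, a robust fit, the replicate block, chromosome medians as offsets, pseudogene reads added by name, other thresholds and each library left out. Addition of pseudogenes matched with blastn 2.17.0 was added later. Named are the genes called or at an unadjusted p under 0.05, the 5 largest and 5 smallest changes, the members with most and fewest counts, untested members, paralogues, and called genes of the lists and called pseudogenes named after a member. The p-values measure the spread between passages of a line. Libraries of the same number were treated as a pair, and their deviations from the group means had a correlation of -0.0139 over 7705 genes. Transcript-level data, qPCR and fly experiments were not used here.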

Additional observations from a re-analysis of the deposited data

How the results depend on the processing

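The number of ribosomal protein genes called lower was 6 of 76 tested, against 3.22% of all genes. It was 1 with chromosome medians removed (against 2.09%) and 12 of 83 with reads of matched pseudogenes added (against 3.14%). It was 3 with the DESeq2 Wald or likelihood-ratio test under the local fit and 2 under the parametric fit. With reads of pseudogenes named after a member added it was 10. The number called higher was 1, against 2.33% of all genes. It was 0 with chromosome medians removed (against 1.2%) and with matched pseudogene reads added (against 2.3%). It was also 0 under the parametric fits and with reads of named pseudogenes added. With matched pseudogene reads added and chromosome medians removed, 3 genes were called lower. Where no share over all genes is given here, the count cannot be set beside it. Calls were also lost and gained when single libraries were left out. The median log2 fold change of the 76 genes was 0.02 without knockdown 1 and -0.28 without knockdown 2.

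With the replicate block, 4 genes were called lower in place of 6, against 3.23% of all genes, and 1 was called higher, against 2.35%. *Rplp1* then had an adjusted p of 0.0725 and *Rps27l* of 0.0508 by the quasi-likelihood test. With the block and matched pseudogene reads added, 9 of 12 were lower. Within the pairs, the share of reads on these genes differed by -1.176 and -0.316 percentage points (knockdown minus scrambled), and with matched pseudogene reads added the unpaired difference was -1.515 points. *Rps13* turned to -0.26 with reads of named pseudogenes, -0.27 with those of matched pseudogenes, and lay between -0.20 and 0.94 when single libraries were left out; *Rpl5* turned to -0.15 with matched pseudogene reads. Over 22 genes and 417 single-gene alternatives, 351 kept their direction and side of the threshold, 45 lost a call, 17 gained one and 4 changed direction. Most of the 22 genes had no call, and for them keeping their side meant staying uncalled. All 45 losses fell on the called genes, from 3 of 19 alternatives for *Rpl4* to 10 of 19 for *Rps24*. The cause of these changes was not tested. Genes with under 50 reads per library, such as *Rpl32*, rest on few reads, and the part of depth in their changes was not tested.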
